A study of Homo sapiens with 8 samples.

Results

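The Krüppel-like factor (KLF) genes KLF2, KLF4, KLF5, KLF6, KLF7, KLF9, KLF10, KLF11, KLF13 and KLF16 were followed in U87MG cells treated with enzalutamide. They were taken by symbol, 10 genes of the 23368 listed, and are 10 of the 17 KLF symbols there. U87MG is an established human glioblastoma line, grown here in DMEM with fetal bovine serum. Enzalutamide is an antagonist of the androgen receptor used against prostate cancer. RNA was sequenced from untreated control cells and from cells exposed to the drug for 4, 24 or 48 h, with 2 libraries per group. The labels give no dose, vehicle or time for the untreated cells, so drug exposure and time in culture cannot be told apart. They also speak of a harvest after differentiation that no other protocol describes. Whether the 2 libraries of a group stem from separate cultures is not said, so p-values cover the library-to-library spread alone, and that spread may be technical.

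KLF proteins bind GC-rich and CACCC sequences through C2H2 zinc fingers at the C-terminal end, so members can compete for the same sites, also with the related SP proteins. The parts outside the fingers differ. One class (KLF2, KLF4, KLF5, KLF6 and KLF7) is known for recruiting acetyltransferases and mostly activates. A second class (KLF9, KLF10, KLF11, KLF13 and KLF16) binds the corepressor SIN3A and mostly represses. Another (KLF3, KLF8 and KLF12) binds CtBP corepressors. Several are fast-responding genes of growth factor, stress, TGF-beta or hormone signalling, and KLF9 is known to restrain glioblastoma stem cells.

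The proximal promoters of 4 members are shown. KLF2 had the largest change at 24 h among the 10 genes, and KLF6, KLF11 and KLF16 were all higher at 48 h. The choice is not complete, since KLF5, KLF7 and KLF10 were also higher at 48 h. KLF7 changed more than KLF16 there (log2 change 1.29 against 1.06). Each line holds the 250 bases before a start site in RefSeq (GRCh38.p14), read 5′ to 3′ on the gene's strand. Capitals mark the MEF2 element in KLF2, the E-box CACGTG in KLF6 and at the first KLF11 start, the cAMP response element TGACGTCA at the second KLF11 start, and the GC boxes GGGCGG, on either strand, in KLF16.
KLF2 (chr19:16324576-16324825, + strand): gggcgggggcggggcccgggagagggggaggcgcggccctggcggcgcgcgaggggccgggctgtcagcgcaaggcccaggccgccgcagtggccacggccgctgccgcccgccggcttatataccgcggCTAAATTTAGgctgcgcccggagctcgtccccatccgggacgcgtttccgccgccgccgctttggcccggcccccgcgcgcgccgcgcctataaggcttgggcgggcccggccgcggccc
KLF6 (chr10:3785210-3785459, - strand): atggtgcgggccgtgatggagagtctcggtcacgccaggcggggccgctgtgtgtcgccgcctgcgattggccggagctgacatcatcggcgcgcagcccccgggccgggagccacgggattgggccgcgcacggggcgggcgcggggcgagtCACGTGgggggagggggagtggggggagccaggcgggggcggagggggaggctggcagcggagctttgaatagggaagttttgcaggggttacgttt
KLF11 (chr2:10043579-10043828, + strand): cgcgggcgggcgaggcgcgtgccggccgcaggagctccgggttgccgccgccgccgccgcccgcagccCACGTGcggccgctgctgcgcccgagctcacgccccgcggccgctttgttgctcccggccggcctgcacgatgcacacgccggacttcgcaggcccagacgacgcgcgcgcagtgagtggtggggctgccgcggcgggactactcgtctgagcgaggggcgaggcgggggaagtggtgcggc
KLF11 (chr2:10043971-10044220, + strand): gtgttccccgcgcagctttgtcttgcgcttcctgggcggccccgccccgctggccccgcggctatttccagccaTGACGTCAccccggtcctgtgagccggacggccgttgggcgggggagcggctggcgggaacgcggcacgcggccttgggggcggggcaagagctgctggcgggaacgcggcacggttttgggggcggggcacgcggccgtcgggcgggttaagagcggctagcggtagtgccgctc
KLF16 (chr19:1863580-1863829, - strand): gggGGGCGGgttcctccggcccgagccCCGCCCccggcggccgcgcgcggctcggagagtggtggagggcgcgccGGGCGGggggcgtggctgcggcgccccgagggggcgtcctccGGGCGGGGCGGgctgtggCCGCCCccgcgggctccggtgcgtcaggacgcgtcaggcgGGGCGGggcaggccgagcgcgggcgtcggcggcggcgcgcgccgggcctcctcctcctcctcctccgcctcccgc

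The RefSeq table matched 9 of the 10 members, all but KLF10, with 14 start sites in all. Both strands of each window were searched for 12 motifs. The MEF2 element, the site through which the kinase ERK5 and MEF2 factors are known to activate KLF2, was found once in KLF2, at position -120 from the start, and in no other member, against 2.8% of all 35116 promoters. The cAMP response element stood at position -176 of the second KLF11 start, overlapped by a CACCC box, and is held by 1.65% of all promoters. An E-box was found in 4 of the 14 windows, 1 each in KLF4, KLF6, KLF7 and KLF11 (6.34% of promoters). A GC box was in 9 of the 14 windows, from 8 of the 9 members (42.6% of promoters), with 7 matches in KLF16, of which 2 overlap. GC content ran from 32.4% in the KLF9 window to 86.4% in that of KLF16, with a median of 58% over all promoters. CACCC was present in 6 of the 14 windows, from 4 members (54.7% of promoters). The CArG box was in 1 window, of KLF7 (1.16%), and TATAAA in 1 window, of KLF5 (10.7%). TGANTCA of AP-1 (6.57%), TGATGNAAN of ATF4 and CHOP (3.13%), the ER stress element (0.074%), GTCTAGAC of SMAD proteins (0.182%) and the palindromic steroid receptor element (0.327%) were in none of the 14 windows. A match is a run of letters, not a bound site.

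Libraries held between 24620833 and 37162565 counts, and the 10 genes had between 62 and 5575 counts each per library. Levels are in CPM, counts brought to a common library size, scaled with edgeR's TMM factors, which were 1.02 to 1.08 in the control, 4 h and 24 h libraries but 0.870 and 0.899 at 48 h. Scaling by library totals alone moved the median change of all genes at 48 h by -0.28 on the log2 scale. The higher ones among called genes then made up 38.2%, 41.4% and 29% at 4, 24 and 48 h against control, compared with 52.4%, 57.9% and 49.8% under TMM. The 2 libraries of a group differed by more than sampling noise, most of all at 48 h (chi-square per degree of freedom 20.8, against 6.92 in control, 14.6 at 4 h and 4.497 at 24 h). Markers of a mesenchymal glioblastoma line were high, with group means of 5679 to 13077 CPM for VIM, 3679 to 6304 CPM for FN1 and 1895 to 2832 CPM for CD44. The astrocyte marker GFAP had group means of at most 0.483 CPM. AQP4, HBB and HBA1 were at 0 in all libraries. PECAM1, CDH5, VWF, EPCAM and CDH1 were under 1 CPM, and the immune marker PTPRC had group means of at most 0.188 CPM. NES ranged from 12.1 to 42.1 CPM, OLIG2, MBP and SYT1 from 1.60 to 6.81 CPM and S100B and RBFOX3 up to 0.531 CPM. CD68, a lysosomal gene of immune cells among others, stood at 586 to 990 CPM. The part of other cell types in the results was not tested. CPM is a share of a library, so a change in the number of cells in some state and a change of RNA per cell cannot be told apart.

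**Figure D1:**
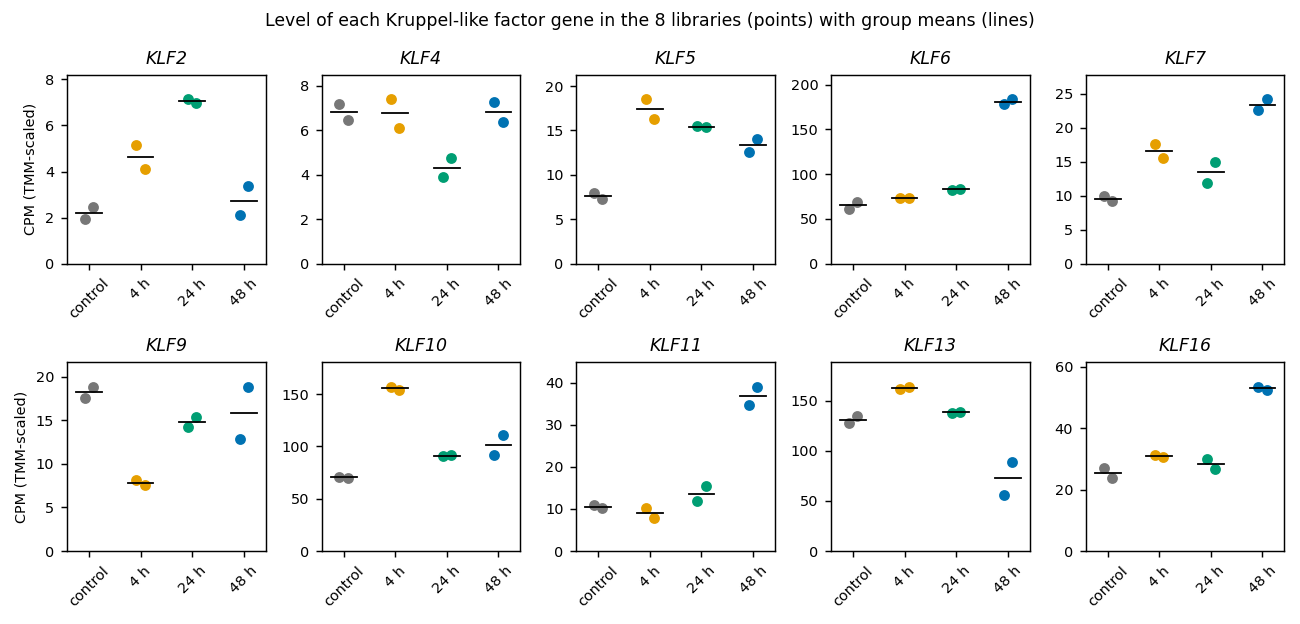
Level of each KLF gene in TMM-scaled CPM in control cells and after 4, 24 and 48 h of enzalutamide; points are the 2 libraries of a group and lines their mean, and each panel has its own axis from 0. KLF6, KLF7, KLF11 and KLF16 stand highest at 48 h, KLF2 at 24 h, and KLF5, KLF10 and KLF13 at 4 h. KLF9 is lowest at 4 h and KLF4 at 24 h. The 4 h rise of KLF13 over control did not pass, nor did the KLF5 difference between 4 and 24 h.

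KLF5, KLF10, KLF2, KLF7 and, by a small change that several alternatives did not keep, KLF16 were higher at 4 h than in control, and KLF9 was lower. At 4 h, 5 of the 10 genes were higher and 1 was lower than in control at an adjusted p under 0.05 by edgeR's quasi-likelihood test, against a background of 15% of the 14448 tested genes higher and 13.6% lower (28.6% in all). The median log2 change of the 10 genes was 0.30, and that of all tested genes 0.00. After 24 h, 5 were higher and 1 lower, where 12.9% of all genes were higher and 9.39% lower (22.3% in all), with medians of 0.36 and 0.02. After 48 h, 6 were higher and 1 lower, where 33.3% and 33.5% of all genes were (66.9% in all), with medians of 0.66 and -0.02, so that the share of members called at all, 7 of 10, was near the background. With a log2 change of at least 1 also required, 3 members were higher and 1 lower at 4 h (2.44% and 1.63% of all genes), 2 higher and 0 lower at 24 h (1.69% and 1.18%), and 4 higher and 0 lower at 48 h (5.3% and 15.8%). The 3 comparisons share the control libraries. The 10 genes were chosen with earlier results of these data known. Their counts and medians beside the background, here and between times, are therefore a description and no test of the family.

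**Figure D2:**
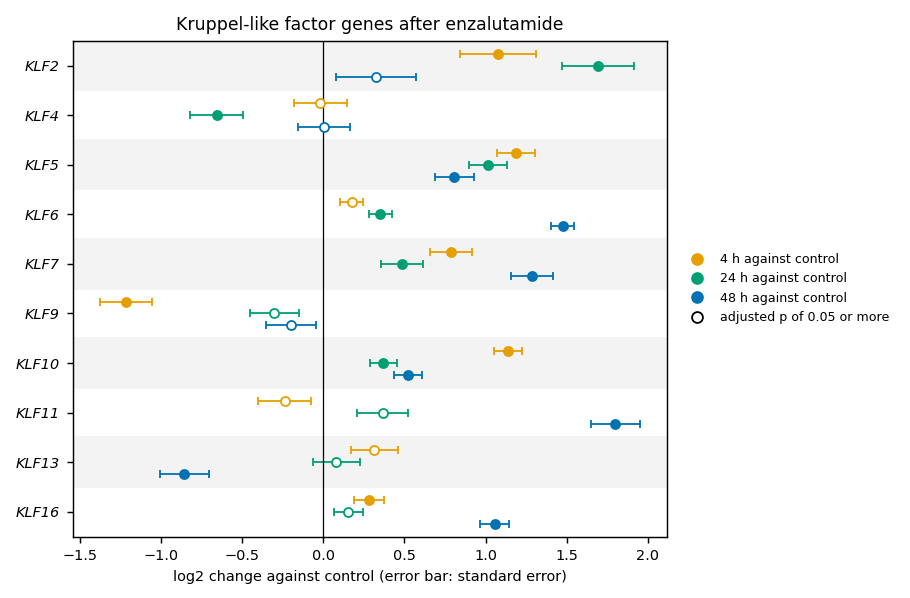
Log2 change of each KLF gene against control at 4, 24 and 48 h, with standard errors; filled points passed an adjusted p under 0.05 in edgeR's quasi-likelihood test. KLF9 at 4 h, KLF4 at 24 h and KLF13 at 48 h are the filled points left of 0.

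Among the class that recruits acetyltransferases, KLF2, a factor known for keeping endothelial cells and T cells quiescent, was, with KLF7, the least abundant of the 10 per length in control cells. It had 1.93 and 2.44 CPM in control libraries, 5.16 and 4.12 CPM at 4 h, 7.14 and 6.99 CPM at 24 h, and 2.11 and 3.37 CPM at 48 h. Both the 4 h and the 24 h libraries lay above both controls, and the 48 h libraries overlapped them. KLF2 was 2.11-fold higher at 4 h (log2 change 1.08, SE 0.23, adjusted p = 0.00592) and 3.23-fold higher at 24 h (log2 change 1.69, SE 0.22, adjusted p = 0.000377), a change at 24 h that only 0.699% of all tested genes exceeded in size. It then fell, by 1.37 on the log2 scale at 48 h against 24 h (SE 0.22, adjusted p = 0.000212), and at 48 h did not pass against control (log2 change 0.32, SE 0.25, adjusted p = 0.265). It did pass without 48 h replicate 1 (log2 change 0.63, adjusted p = 0.035). The 4 h call was lost without 4 h replicate 1 (adjusted p = 0.0531) or control replicate 1 (adjusted p = 0.0613). KLF2 counts were low, 62 to 272 per library, and KLF2, KLF4 and KLF7 have annotated pseudogenes with which reads may be shared.

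KLF4, a factor of epithelial differentiation and of reprogramming to pluripotency, took the opposite course at 24 h. Its level was 7.17 and 6.44 CPM in control cells, 7.40 and 6.12 CPM at 4 h, 3.89 and 4.76 CPM at 24 h, and 7.28 and 6.36 CPM at 48 h. Only the 24 h libraries stood apart, both below every other library. KLF4 was lower at 24 h than in control (log2 change -0.66, SE 0.17, adjusted p = 0.0159) and than at 4 h (log2 change -0.64, adjusted p = 0.0104), and higher at 48 h than at 24 h (log2 change 0.66, adjusted p = 0.00449). The 24 h call against control was lost without 24 h replicate 1 (adjusted p = 0.143) or control replicate 1 (adjusted p = 0.12), and without 24 h replicate 1 the rise at 48 h against 24 h had adjusted p = 0.0508. The fall against 4 h was lost without 24 h replicate 1 (adjusted p = 0.0999) or 4 h replicate 1 (adjusted p = 0.0871). At 48 h the log2 change from control was 0.00, with a 95% interval of -0.44 to 0.45.

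KLF5, which drives proliferation of epithelial crypts and smooth muscle, was raised at each time. KLF5 had 7.99 and 7.25 CPM in control libraries, 18.5 and 16.3 CPM at 4 h, 15.5 and 15.4 CPM at 24 h, and 12.6 and 14.1 CPM at 48 h. All 6 treated libraries lay above both controls. The gene was 2.28-fold higher at 4 h (log2 change 1.19, SE 0.12, adjusted p = 4.07e-05), 2.02-fold at 24 h (log2 change 1.02, SE 0.12, adjusted p = 0.000152) and 1.75-fold at 48 h (log2 change 0.81, SE 0.12, adjusted p = 0.000114). The order of the levels was 4, 24 and 48 h, then control, but neither 24 h against 4 h (adjusted p = 0.247) nor 48 h against 24 h (adjusted p = 0.128) passed. All 3 calls against control held under every alternative that refit the data, while a required log2 change of at least 1 left out the one at 48 h.

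KLF6, a broadly expressed early-response factor described as a tumour suppressor, became the leading member at 48 h. Its libraries held 60.9 and 69.2 CPM in control cells, 73.8 and 72.9 CPM at 4 h, 82.6 and 83.2 CPM at 24 h, and 178 and 184 CPM at 48 h. The levels of the 4 groups did not overlap, and 48 h stood far above the others. KLF6 was 2.78-fold higher at 48 h (log2 change 1.47, SE 0.07, adjusted p = 2.32e-08) and 1.28-fold higher at 24 h (log2 change 0.35, SE 0.07, adjusted p = 0.00546), and did not pass at 4 h (log2 change 0.17, SE 0.07, adjusted p = 0.095) unless 48 h replicate 1 (adjusted p = 0.0357) or 48 h replicate 2 (adjusted p = 0.0356) was left out. The 24 h call was lost without 24 h replicate 2 (adjusted p = 0.0538) or control replicate 1 (adjusted p = 0.0735). The step at 48 h against 24 h was 2.18-fold (log2 change 1.12, SE 0.07, adjusted p = 1.49e-07).

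KLF7, known from axon growth in neurons, was higher at all 3 times, most at 48 h. There were 9.89 and 9.26 CPM in control libraries, 17.5 and 15.6 CPM at 4 h, 11.9 and 14.98 CPM at 24 h, and 22.6 and 24.2 CPM at 48 h. Every treated library lay above both controls, and the 24 h pair was the most spread. KLF7 was 1.72-fold higher at 4 h (log2 change 0.79, SE 0.13, adjusted p = 0.00115), 1.399-fold at 24 h (log2 change 0.48, SE 0.13, adjusted p = 0.0213) and 2.44-fold at 48 h (log2 change 1.29, SE 0.13, adjusted p = 4.89e-06). The call at 24 h was lost without 24 h replicate 2 (log2 change 0.31, adjusted p = 0.222) or either control (adjusted p = 0.084 without control replicate 1 and 0.129 without control replicate 2). At 48 h against 24 h the gene rose by 0.80 on the log2 scale (SE 0.12, adjusted p = 0.000149). At 24 h against 4 h it did not pass (log2 change -0.30, adjusted p = 0.0786) but did without 24 h replicate 2 (log2 change -0.47, adjusted p = 0.0341) or either 48 h library (adjusted p = 0.048 each).

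In the SIN3A-binding class, KLF9, a target of glucocorticoid and thyroid hormone receptors, was the only member lower at 4 h. It stood at 17.6 and 18.8 CPM in control cells, 8.16 and 7.56 CPM at 4 h, 14.2 and 15.4 CPM at 24 h, and 12.9 and 18.9 CPM at 48 h. The 4 h libraries were below all others, and the 48 h pair was so spread that it reached from below the 24 h libraries to the level of control. KLF9 was 2.32-fold lower at 4 h (log2 change -1.22, SE 0.16, adjusted p = 0.000281), and higher at 24 h than at 4 h (log2 change 0.91, SE 0.16, adjusted p = 0.00112). It did not pass at 24 h (log2 change -0.30, adjusted p = 0.184) or at 48 h (log2 change -0.20, adjusted p = 0.271). At 24 h it did pass in a fit without the 48 h libraries (adjusted p = 0.0197), or without 48 h replicate 1 (adjusted p = 0.0265) or 48 h replicate 2 (adjusted p = 0.0281) alone. At 48 h the value rested on single libraries, with a log2 change of 0.06 without 48 h replicate 1 and -0.49 (adjusted p = 0.00301) without 48 h replicate 2. Scaled by library totals alone it was -0.47 (adjusted p = 0.0245).

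KLF10, first described as a TGF-beta-inducible early gene, peaked at 4 h. KLF10 measured 70.9 and 70.3 CPM in control libraries, 157 and 154 CPM at 4 h, 90.6 and 92.0 CPM at 24 h, and 91.4 and 111 CPM at 48 h. All treated libraries exceeded both controls, and both 4 h libraries exceeded all others. The gene was 2.20-fold higher at 4 h (log2 change 1.14, SE 0.08, adjusted p = 5.98e-06), 1.29-fold at 24 h (log2 change 0.37, SE 0.08, adjusted p = 0.00987) and 1.44-fold at 48 h (log2 change 0.52, SE 0.08, adjusted p = 0.00022). It fell by 0.77 at 24 h against 4 h (SE 0.08, adjusted p = 3.32e-05), and 48 h against 24 h did not pass (log2 change 0.15, adjusted p = 0.134) except without 48 h replicate 1 (log2 change 0.29, adjusted p = 0.00063). The 24 h call against control was lost when any of its 4 libraries was left out (adjusted p between 0.0606 and 0.0804), and the 48 h value was 0.24 (adjusted p = 0.0369) when scaled by library totals alone.

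KLF11, the close relative of KLF10 and a second TGF-beta-inducible early gene, did not share the 4 h peak. KLF11 levels were 10.9 and 10.2 CPM in control cells, 10.3 and 7.82 CPM at 4 h, 11.8 and 15.5 CPM at 24 h, and 34.6 and 39.1 CPM at 48 h. The control and 4 h libraries overlapped, and the 48 h pair lay far above the rest. KLF11 was 3.48-fold higher at 48 h than in control (log2 change 1.80, SE 0.15, adjusted p = 1.31e-06), and 2.71-fold higher than at 24 h (log2 change 1.44, SE 0.15, adjusted p = 6.26e-06). It did not pass against control at 4 h (log2 change -0.24, SE 0.16, adjusted p = 0.311) or 24 h (log2 change 0.36, SE 0.16, adjusted p = 0.118). At 24 h it did pass in a fit of only the 2 groups compared (log2 change 0.34, adjusted p = 0.0425). The step at 24 h against 4 h passed (log2 change 0.60, adjusted p = 0.0113) unless 24 h replicate 2 (log2 change 0.39, adjusted p = 0.126) or 4 h replicate 2 (log2 change 0.41, adjusted p = 0.131) was left out. In GENCODE 29, 416 bases of its exons overlap the opposite-strand gene AC104794.4, and the use of strand in counting is not given.

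KLF13, an activator of the chemokine gene CCL5 in T lymphocytes, was the only member lower at 48 h. Its libraries gave 128 and 134 CPM in control cells, 161 and 164 CPM at 4 h, 138 and 139 CPM at 24 h, and 56.2 and 88.4 CPM at 48 h. Both 48 h libraries were below all others, though they differed from each other more than any other pair. KLF13 was 1.81-fold lower at 48 h (log2 change -0.86, SE 0.15, adjusted p = 0.000371), with a log2 change of -0.56 without 48 h replicate 1 and -1.21 without 48 h replicate 2. It was also lower than at 24 h (log2 change -0.93, SE 0.15, adjusted p = 0.000187), -0.64 without 48 h replicate 1. At 4 h the log2 change was 0.31 and did not pass (SE 0.15, adjusted p = 0.133), but it passed in a fit without the wide 48 h pair (log2 change 0.32, adjusted p = 9.26e-05), or without 48 h replicate 1 (adjusted p = 0.000122) or 48 h replicate 2 (adjusted p = 0.000113) alone.

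KLF16, known as a regulator of dopamine receptor genes, was higher at 48 h. KLF16 showed 27.1 and 23.9 CPM in control libraries, 31.4 and 30.7 CPM at 4 h, 29.9 and 26.8 CPM at 24 h, and 53.6 and 52.5 CPM at 48 h. The 24 h libraries overlapped control, and the 48 h libraries were the highest. It was 2.08-fold higher at 48 h (log2 change 1.06, SE 0.09, adjusted p = 1.3e-06), 1.87-fold higher at 48 h than at 24 h (log2 change 0.90, SE 0.09, adjusted p = 3.97e-06), and did not pass at 24 h (log2 change 0.15, adjusted p = 0.255). The small change at 4 h (log2 change 0.28, SE 0.09, adjusted p = 0.0374) did not pass with DESeq2 (adjusted p = 0.0535), without a filter (adjusted p = 0.0572), scaled by library totals alone (adjusted p = 0.0876), without 4 h replicate 1 (adjusted p = 0.158), 4 h replicate 2 (adjusted p = 0.127) or control replicate 2 (adjusted p = 0.263), or without either 24 h library (adjusted p = 0.0545 and 0.0541). The opposite-strand gene AC012615.3 overlaps 483 bases of its exons.

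Between consecutive times, by the same test, 3 members were higher and 2 lower at 24 h than at 4 h, where 21.2% and 20.3% of all tested genes were (41.5% in all), and 5 were higher and 2 lower at 48 h than at 24 h, where 31.5% and 35.3% were (66.8% in all). The 24 h step raised KLF2 (log2 change 0.62, adjusted p = 0.0348), KLF9 and KLF11 and lowered KLF4 and KLF10. KLF2 did not pass that step with DESeq2 (adjusted p = 0.0516), or without 24 h replicate 1 (adjusted p = 0.13), 24 h replicate 2 (adjusted p = 0.114) or 4 h replicate 2 (adjusted p = 0.232). KLF6 and KLF13 did not pass it (adjusted p = 0.0691 and 0.224), though KLF6 did with the replicate number as a block (adjusted p = 0.0495). With either 48 h library left out KLF6 was higher (adjusted p = 0.0232 and 0.0231) and KLF13 lower (adjusted p = 0.000972 and 0.000909). The 48 h step raised KLF4, KLF6, KLF7, KLF11 and KLF16 and lowered KLF2 and KLF13. KLF9 did not pass it (log2 change 0.10, adjusted p = 0.568), but did without 48 h replicate 1 (log2 change 0.35, adjusted p = 0.0172). KLF5 did not pass it either, but was lower when scaled by library totals alone (log2 change -0.42, adjusted p = 0.00742) and with a filter of at least 5 CPM in 2 libraries (log2 change -0.28, adjusted p = 0.0441). With a log2 change of at least 1 required, 0 members were higher and 0 lower at the 24 h step (4.18% and 3.77% of all genes), and 2 higher and 1 lower at the 48 h step (5.52% and 16.1%).

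Scaled by length, the order of the members changed with time. Dividing CPM by the exon length in GENCODE 29, a later annotation than the authors' builds and so an approximation, gave in control cells 19.0 CPM per kb for KLF13, 17.6 for KLF10, 10.9 for KLF6 and 8.63 for KLF16, with the other 6 members between 1.08 and 3.52 CPM per kb. The libraries of KLF11 and KLF4 overlapped, as did those of KLF7 and KLF2. At 4 h KLF10 led with 38.9 CPM per kb, ahead of KLF13 with 23.6. KLF4, KLF2, KLF11 and KLF7, in that order, each overlapped the next. At 24 h KLF10 led with 22.8, KLF13 followed with 20.1, KLF11 overlapped both KLF2 and KLF9, and KLF7 overlapped KLF4. At 48 h KLF6 led with 30.2 CPM per kb (29.8 and 30.7 in the 2 libraries), followed by KLF10 with 25.3 (22.8 and 27.8), KLF16 with 18.0, KLF13 with 10.5 (8.18 and 12.9) and KLF11 with 8.58 (8.06 and 9.10). KLF13 and KLF11 overlapped there, and KLF9 overlapped both KLF5 and KLF7. Summed over each class, the 5 acetyltransferase-recruiting members came to 87.8 and 94.6 CPM in control libraries, 122 and 115 CPM at 4 h, 121 and 125 CPM at 24 h, and 222 and 232 CPM at 48 h. The 5 SIN3A-binding members came to 254 and 257 CPM in control libraries, 369 and 364 CPM at 4 h, 284 and 289 CPM at 24 h, and 249 and 310 CPM at 48 h. These sums are of CPM not scaled by length. The first sum was highest at 48 h, mostly KLF6, and the second at 4 h, mostly KLF10 and KLF13. Group means at 4 h were 156 CPM for KLF10 and 163 CPM for KLF13, against 70.6 and 131 CPM in control. The KLF13 change at 4 h did not pass, KLF9 was lower there, and KLF11 did not pass, so the second sum does not show a rise of the whole class.

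**Figure D3:**
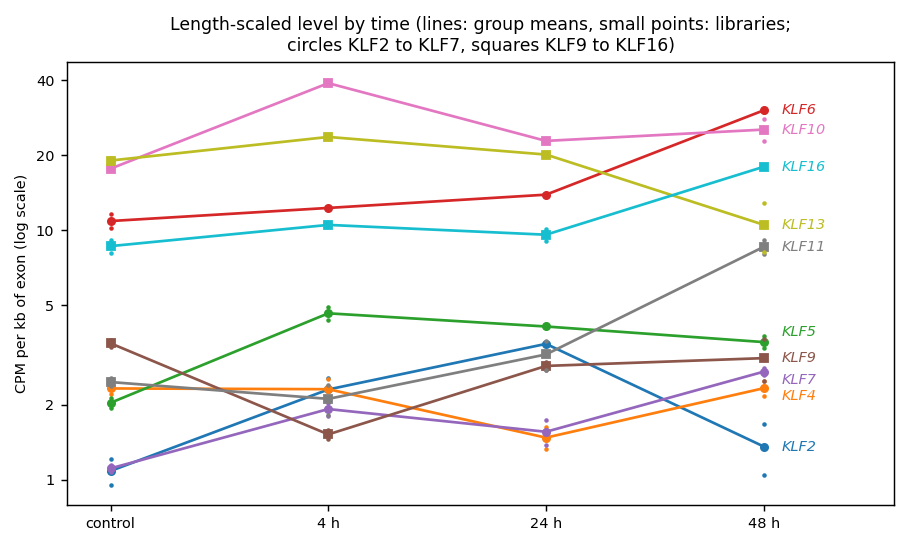
Length-scaled level of the 10 KLF genes, in CPM per kb of exon on a log axis, in control cells and at 4, 24 and 48 h; lines join group means, small points are libraries, circles are the acetyltransferase-recruiting class and squares the SIN3A-binding class. KLF10 leads at 4 h with 38.9 and KLF6 at 48 h with 30.2 CPM per kb.

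The lists of related genes are read against all tested genes, of which 15% were higher and 13.6% lower at 4 h, 12.9% higher and 9.39% lower at 24 h, and 33.3% higher and 33.5% lower at 48 h, with median log2 changes of 0.00, 0.02 and -0.02. These lists too were chosen with earlier results of these data known. Of the 7 other KLF genes, KLF1 and KLF14 had no count in any library, KLF8 had 1 to 8 counts per library, and KLF3, KLF12, KLF15 and KLF17 were tested. None of the 4 was higher and 1 was lower at 4 h, none passed at 24 h, and 1 was higher and 1 lower at 48 h. Their median log2 changes were -0.41, 0.02 and 0.11 at 4, 24 and 48 h. KLF3, a CtBP-binding repressor, rose at 48 h (log2 change 0.89, SE 0.08, adjusted p = 3.28e-06), to 44.2 and 47.5 CPM against 24.8 and 24.8 CPM in control. KLF12, of the same class, fell at 4 h (log2 change -0.63, SE 0.10, adjusted p = 0.000795) and at 48 h (log2 change -0.46, SE 0.10, adjusted p = 0.00135). KLF17 did not pass at any time, with log2 changes between -0.04 and 0.06, and KLF15, at 7 to 26 counts, did not pass either. Reads of KLF3 may be mixed with those of its antisense gene KLF3-AS1.

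Among the SP genes, whose proteins bind the same GC boxes, 6 of 9 were tested. None was higher and 2 were lower at 4 h, 2 were higher and 1 lower at 24 h, and 3 were higher and 1 lower at 48 h. The medians of the 6 were -0.23, 0.22 and 0.35. SP1, the ubiquitous activator of GC-box promoters, fell at 4 h (log2 change -0.38, SE 0.07, adjusted p = 0.00254) and rose at 24 h (log2 change 0.23, SE 0.07, adjusted p = 0.0384) and at 48 h (log2 change 1.39, SE 0.07, adjusted p = 3.36e-08). SP4 fell at 4 h (log2 change -0.73, SE 0.15, adjusted p = 0.00462) and rose at 24 h (log2 change 0.52, SE 0.14, adjusted p = 0.0212). At 48 h SP2 (log2 change 0.55, adjusted p = 0.000938) and SP3 (log2 change 0.44, adjusted p = 0.000638) rose and SP6, a factor of tooth and limb development, fell (log2 change -1.20, adjusted p = 2.17e-06). SP6 had fallen at 24 h too (log2 change -0.35, adjusted p = 0.0286), and SP5 did not pass at any time.

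**Figure D4:**
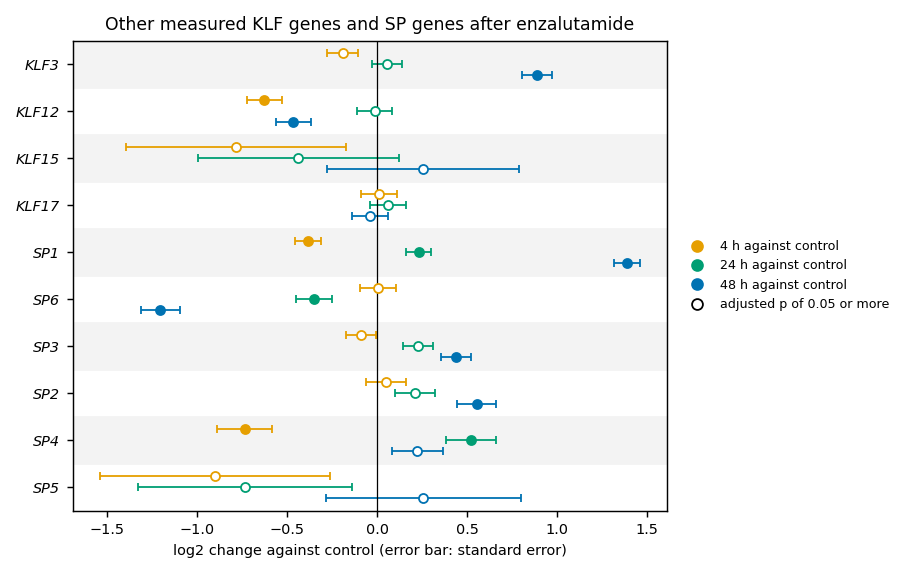
Log2 change against control, with standard errors, of the other measured KLF genes and of the SP genes at 4, 24 and 48 h; filled points passed an adjusted p under 0.05 in edgeR's quasi-likelihood test. SP1 reaches 1.39 and SP6 falls to -1.20 at 48 h, and KLF17 stays near 0.

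Of 11 genes of KLF cofactors, none was higher and 2 were lower at 4 h, 2 were higher and 1 lower at 24 h, and 3 were higher and 3 lower at 48 h, with median log2 changes of -0.01, 0.11 and 0.06. All tested genes were called in 28.6%, 22.3% and 66.9% of cases. SIN3A, the corepressor bound by KLF9, KLF10, KLF11, KLF13 and KLF16, fell at 4 h (log2 change -0.60, SE 0.07, adjusted p = 0.000146) and rose at 24 h (log2 change 0.29, SE 0.07, adjusted p = 0.0155) and 48 h (log2 change 0.66, SE 0.07, adjusted p = 9.59e-06). The deacetylase gene HDAC1 fell at 48 h (log2 change -1.16, SE 0.06, adjusted p = 6.28e-08), HDAC3 rose (log2 change 0.41, adjusted p = 0.000249), and CTBP2, the corepressor of KLF3 and KLF12, fell at 4 h (log2 change -0.23, adjusted p = 0.0351) and 48 h (log2 change -0.40, adjusted p = 0.000428).

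Of 8 ubiquitin ligase genes whose products act on one or another KLF protein, 2 were higher and none lower at 4 h and again at 24 h, and 2 were higher and 6 lower at 48 h. Of all tested genes, 15% were higher at 4 h, 12.9% higher at 24 h, and 33.3% higher and 33.5% lower at 48 h. The median log2 change of the 8 genes at 48 h was -0.45, and that of all tested genes -0.02. VHL (log2 change -1.20, adjusted p = 2.23e-06), SMURF2 (-1.03, adjusted p = 3.64e-06) and BTRC (-0.60, adjusted p = 0.00023) were lower at 48 h. SIAH1, whose product is known to target KLF10 for degradation, rose (log2 change 2.07, SE 0.16, adjusted p = 6.51e-07).

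Of 14 genes upstream of the KLF family, 4 were higher and 4 lower at 4 h, 2 higher and none lower at 24 h, and 4 higher and 7 lower at 48 h, with median log2 changes of -0.13, 0.10 and -0.34. At these times 28.6%, 22.3% and 66.9% of all tested genes were called in either direction. The TGF-beta receptor gene TGFBR2 fell at 4 h (log2 change -0.92, SE 0.08, adjusted p = 1.91e-05) and 48 h (log2 change -1.89, SE 0.09, adjusted p = 1.38e-08). TGFBR1 rose at 4 h (log2 change 0.63, adjusted p = 0.002) and fell at 48 h (log2 change -1.55, adjusted p = 6.87e-07), and SMAD3, the signal carrier below both receptors, rose at 4 h (log2 change 0.37, adjusted p = 0.00272) and 24 h (log2 change 0.52, adjusted p = 0.000472) and fell at 48 h (log2 change -1.15, adjusted p = 1.71e-07). MEF2D, one of the factors that bind the MEF2 element, fell at 4 h (log2 change -0.21, adjusted p = 0.0252) and rose at 48 h (log2 change 1.05, adjusted p = 8.61e-08). Its relative MEF2A rose at 4 h (log2 change 0.22, adjusted p = 0.0292) and 24 h (log2 change 0.26, adjusted p = 0.019). MEF2A fell at 48 h (log2 change -0.31, adjusted p = 0.00171). MEF2C passed only at 48 h, where it was lower (log2 change -1.60, adjusted p = 0.000201). MAPK7, the gene of ERK5, did not pass at 4 h (log2 change 0.26, adjusted p = 0.052) or 24 h (0.16, adjusted p = 0.22). It rose at 48 h (log2 change 0.41, adjusted p = 0.00161). MAP2K5 likewise passed only at 48 h, where it rose (log2 change 0.53, adjusted p = 0.000167). A link of these genes to KLF2 was not tested.

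Of 20 genes described elsewhere as targets of KLF proteins, 16 were tested, and 8 were higher and 2 lower at 4 h, 6 higher and 1 lower at 24 h, and 6 higher and 5 lower at 48 h. Their median log2 changes were 0.43, 0.16 and 0.08. Of all tested genes 28.6%, 22.3% and 66.9% were called in either direction, so that the 11 of 16 at 48 h were near the background. THBD, the thrombomodulin gene that KLF2 is known to activate in endothelium, rose at 4 h (log2 change 2.18, SE 0.15, adjusted p = 3.21e-06) and 24 h (log2 change 0.66, SE 0.15, adjusted p = 0.0106) and fell at 48 h (log2 change -2.45, SE 0.20, adjusted p = 1.08e-06). Its peak was at 4 h, while that of KLF2 was at 24 h, and a link between them was not tested. CDKN1A, the cell cycle inhibitor gene that KLF4 and KLF6 can activate, rose at 24 h (log2 change 0.63, adjusted p = 7e-05) and 48 h (log2 change 1.44, adjusted p = 1.56e-08). ATF3, a stress factor gene, rose at 4 h (log2 change 0.77, adjusted p = 2.55e-05) and 48 h (log2 change 3.93, adjusted p = 6.95e-11), and the cyclin gene CCND1 rose at 4 h (log2 change 0.55, adjusted p = 3.03e-05) and fell at 48 h (log2 change -0.82, adjusted p = 1.75e-07). All of these genes respond to many other factors.

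Of 8 genes that respond to steroid receptors as KLF9 does, 5 were tested, and 2 were higher and 1 lower at 4 h, 2 higher and 1 lower at 24 h, and 3 higher and 1 lower at 48 h, with medians of -0.01, 0.12 and 0.93. The shares of all tested genes called in either direction were 28.6%, 22.3% and 66.9%. PER1, a clock gene induced by glucocorticoids, fell at 4 h (log2 change -0.63, SE 0.10, adjusted p = 0.000795) and 24 h (log2 change -0.30, adjusted p = 0.0428) and rose at 48 h (log2 change 2.70, SE 0.09, adjusted p = 2.26e-09). TSC22D3, another glucocorticoid-induced gene, rose at 4 h (log2 change 0.75, adjusted p = 0.000688) and at 48 h (log2 change 0.93, adjusted p = 2.49e-05). NDRG1 rose at 4 h (log2 change 0.53, adjusted p = 0.000125) and 24 h (log2 change 0.21, adjusted p = 0.0318) and fell at 48 h (log2 change -0.33, adjusted p = 0.000702), and the kinase gene SGK1 rose at 48 h (log2 change 2.34, adjusted p = 3.09e-09).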

How the data were processed

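Per the labels' protocols, column-purified RNA was treated with DNase before Illumina library preparation. The submitters' processing notes name Bowtie, hg19 and GRCh37. How reads were counted, on which annotation and with what use of strand, is not stated there or in the labels. The authors deposited whole-number counts per gene symbol, not normalized. Each file lists 23368 genes, and 26 names turned into dates, 0.191 to 0.224% of counts, stayed in the totals.

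The 14448 genes kept by filterByExpr were fitted with edgeR 4.0.16 in R 4.3.3, using TMM factors and all 8 libraries in 1 quasi-likelihood fit with 1 coefficient per group (4 residual degrees of freedom, common dispersion 0.00512). A call is a Benjamini-Hochberg adjusted p under 0.05 over all tested genes, and every adjusted p is from this test unless another tool is named. Each standard error is the size of the log2 change over the root of F, and the interval given for KLF4 uses 4 degrees of freedom. The steps were tested on simulated data. The 10 members and all gene lists were chosen with earlier results of these data known. All members are named. Every tested KLF and SP relative is named, and from each other list up to 4 genes with the smallest p in any comparison with control. MEF2A, MEF2C, MAPK7 and MAP2K5 are named in addition, beside MEF2D. For the 3 members of widest range, the 3 genes (mean of at least 5 CPM) with the highest Pearson correlation over the 8 libraries are named, except 1 that is not reported here.

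Alternatives were DESeq2 1.42.0, limma-voom (limma 3.58.1), DESeq2 size factors, library totals, no filter (19903 genes), a minimum of 5 CPM in 2 libraries (11076 genes), a block for the replicate number, fits of only the groups compared or with no 48 h libraries, leaving out each library in turn, and a minimum log2 change of 1. Genes with pseudogene copies or overlapping genes may share reads. Exon lengths are unions of basic transcripts in GENCODE 29 (GRCh38), whose build differs from the authors'.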

Additional observations from a re-analysis of the deposited data

Results flagged for a closer look

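The change from control of several members differed between times by the direct test (edgeR, adjusted p under 0.05). Control cancels in this difference, so these are the comparisons between consecutive times given above and no second line of support. The calls of KLF2, KLF4 and KLF11 that were lost there with a library left out are as uncertain here. Between 24 h and 4 h the difference in log2 change was 0.62 for KLF2 (1.69 at 24 h and 1.08 at 4 h), -0.64 for KLF4 (-0.66 and -0.02), 0.91 for KLF9 (-0.30 and -1.22), -0.77 for KLF10 (0.37 and 1.14) and 0.60 for KLF11 (0.36 and -0.24). Between 48 h and 24 h it was -1.37 for KLF2 (0.32 at 48 h and 1.69 at 24 h), 0.66 for KLF4 (0.00 and -0.66), 1.12 for KLF6 (1.47 and 0.35), 0.80 for KLF7 (1.29 and 0.48), 1.44 for KLF11 (1.80 and 0.36), -0.93 for KLF13 (-0.86 and 0.08) and 0.90 for KLF16 (1.06 and 0.15). The background of genes that differed was 41.5% and 66.8%. Of the 4 members with the widest 48 h pairs, KLF2, KLF9, KLF10 and KLF13, each was higher in 48 h replicate 2 than in 48 h replicate 1. So were KLF5, KLF6, KLF7 and KLF11, while KLF4 and KLF16 were lower. The share over all tested genes was not counted, and the cause was not tested.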

How the results depend on the processing

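All 7 calls against control at 48 h held under all 16 alternatives that refit the data, as did KLF5, KLF7, KLF9 and KLF10 at 4 h and KLF2 and KLF5 at 24 h under all 17. Asking for a log2 change of at least 1 left 3 members higher at 4 h, 2 higher and 0 lower at 24 h, 0 lower at 48 h, 0 higher and 0 lower at 24 h against 4 h, and 2 higher and 1 lower at 48 h against 24 h. Without the 48 h libraries 2 members were lower at 24 h against control and 4 at 24 h against 4 h, and 2 were lower at 24 h with only the 2 groups compared. Library totals as the only scaling gave 2 lower at 48 h. With each library left out in turn, the counts ran from 3 to 7 higher at 4 h, 2 to 5 higher and 0 to 2 lower at 24 h, 6 to 7 higher with 1 to 2 lower at 48 h, 1 to 4 higher and 1 to 4 lower at 24 h against 4 h, and 4 to 7 higher and 2 lower at 48 h against 24 h.

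Directions turned only for changes that had not passed. KLF4 at 48 h against control was -0.0796 with at least 5 CPM, -0.276 with library totals, -0.0201 with only the 2 groups compared and from -0.0936 to 0.107 with a library left out. KLF4 at 4 h ran from -0.15 to 0.12, KLF2 at 48 h from -0.0409 to 0.628 and KLF9 at 48 h from -0.489 to 0.0555 with a library left out. At 48 h against 24 h, library totals gave -0.0625 for KLF10 and -0.108 for KLF9, and KLF9 ran from -0.19 to 0.35 with a library left out. The cause of these turns was not tested.

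Whether libraries with the same replicate number belong together is not said in the labels. The correlation of same-numbered deviations from the group means ran from -0.005 to 0.135 across genes, which cannot settle it. With the replicate number as a block the counts stayed at 5 higher and 1 lower at 4 h and 24 h, 6 higher and 1 lower at 48 h, and 5 higher and 2 lower at 48 h against 24 h, and became 4 higher and 2 lower at 24 h against 4 h, where KLF6 passed (log2 change 0.18, adjusted p = 0.0495). Depth limited KLF2, KLF8 and KLF15 most, and where 1 library remained in a group it was taken to vary as the others do.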

Other observations

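Over the 8 libraries, the genes whose log2 CPM ran most like those of the 3 members with the widest range were listed as a description, with Pearson's r and no test, since the 8 libraries form 4 groups and share their scaling. Among 10656 genes with a mean of at least 5 CPM, ZNF513 (r = 0.996), DDR2, a collagen receptor kinase gene (0.993), and SLC22A15 (0.992) ran most like KLF11. DDR2 had 176 and 194 CPM at 48 h, against 95.2 and 101.2 CPM in control cells. For KLF2, LOC100126784 (0.987) and the plexin gene PLXNA2 (0.967) were among the nearest. PLXNA2 had 79.6 and 88.2 CPM at 24 h, against 34.3 and 34.5 CPM in control cells. For KLF6 the nearest were COPA, a subunit of the COPI coat (0.998), the ER chaperone gene CANX (0.998) and IRAK2 (0.997). CANX had 2016 and 1979 CPM at 48 h, against 1128 and 1165 CPM in control cells.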
